A study of Mus musculus with 6 samples.

Results

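miR-223, miR-142-3p and miR-142-5p, microRNAs (miRNAs) of blood-forming cells, were followed in macrophages lacking the Notch effector RBP-J. They were chosen by name, as the array entries mmu-miR-223, mmu-miR-142-3p and mmu-miR-142-5p, and are 3 of 611 mouse miRNAs on the array. All 3 were well above background on all 6 arrays. The macrophages were grown from bone marrow of female C57BL/6 mice and exposed to lipopolysaccharide (LPS), a bacterial cell-wall component, for 24 h. Knockout samples (n = 3) came from MxCre-RBP-Jf/f mice, with both Rbpj alleles floxed. Controls (n = 3) came from MxCre-RBP-Jf/+ mice, with 1 floxed allele, although their titles call them WT. Both groups therefore carried MxCre and had been given poly(I)-poly(C), which switches on Cre through the interferon-responsive Mx promoter. That promoter is active in blood-forming cells and in other tissues, so the deletion was not limited to macrophages. The sources used here give no age, and nothing says whether the numbered replicates were separate animals, so p-values measure only the spread between these samples, which may be technical. Rbpj mRNA is not measured by a miRNA array.

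A miRNA is cut from the stem of a hairpin transcript, and bases 2 to 8 of the mature strand, the seed, pair with target messages. miR-223 is a myeloid miRNA whose gene is activated by the transcription factors PU.1 and C/EBP-alpha; it restrains granulocyte production and the NLRP3 inflammasome. miR-142 is expressed in nearly all blood lineages and little elsewhere, and both strands of its hairpin, 5p and 3p, are loaded into silencing complexes. The ratio of the 3p to the 5p arm compares 2 products of the same transcript. It is formed within an array, so no scaling between arrays enters it.

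The mature strands are shown because their seeds set them apart as separate regulators, although both miR-142 strands come from 1 gene. They are RefSeq sequences of GRCm38.p6, with the seed in capitals. RefSeq now names the miR-142 strands miR-142a, and the array's miR-223 was taken to be the 3p strand, since the array files hold no probe sequence.
miR-223: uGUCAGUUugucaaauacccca
miR-142-3p: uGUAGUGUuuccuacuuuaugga
miR-142-5p: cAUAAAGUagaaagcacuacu

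No seed was shared among the 3, and none of the 1679 mature mouse miRNA names in the RefSeq table had any of these seeds besides its owner. The strands were AU-rich, at 59.1% A or U in miR-223, 65.2% in miR-142-3p and 66.7% in miR-142-5p.

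The Mir142 hairpin, at chr11:87756864-87756927 on the plus strand, is printed to show the arms whose ratio was measured, both in capitals. The 5p arm fills bases 4 to 24 and the 3p arm bases 40 to 62 of its 64 bases.
Mir142: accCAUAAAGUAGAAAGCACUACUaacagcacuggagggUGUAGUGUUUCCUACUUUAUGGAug

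A second miRNA gene, Mir142b, covers the same stretch on the minus strand. Its mature strand shares a run of 10 bases with miR-142-5p and of 4 bases with miR-142-3p, and it has no entry on the array. Mir223 lies at chrX:96242817-96242926 on the plus strand, inside the span of the lncRNA gene F630028O10Rik. Whether that is exonic or intronic was not analysed here. The other arm, miR-223-5p, has no entry on the array either, so no arm ratio could be formed for miR-223.

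Signal is given as log2 of the probe's intensity over its array's 75th percentile, taken over the 200 probes detected on every array. A value of 0 is the brightness of that percentile. The summed miRNA signal was 65965, 63182 and 77288 intensity units in control replicates 1, 2 and 3. It was 58124, 45517 and 55283 in knockout replicates 1, 2 and 3, so every knockout array was dimmer than every control array. The 75th percentile used for scaling was likewise 242.6 to 352.3 units in control and 186.3 to 227.1 in knockout samples. Values with no scaling between arrays carry this difference, whose cause was not tested. Per array, 127 to 141 miRNAs were detected. Correlations of arrays across the 135 tested miRNAs lay between 0.966 and 0.993. Control replicate 1 and knockout replicate 3 stood apart in several values below. The genotype differences of the 3 members and the correlations among them are also given without these arrays.

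miR-223 was among the brightest miRNAs of these macrophages. Its scaled log2 signal was 3.46, 2.82 and 2.42 in control replicates 1, 2 and 3, a mean of 2.90 ± 0.53 (SD, n = 3). In knockout replicates 1, 2 and 3 it was 2.59, 2.46 and 2.99, a mean of 2.68 ± 0.28 (SD, n = 3). Control replicate 1 was highest and control replicate 3 lowest, so the control arrays enclosed all knockout arrays.

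miR-142-3p was less bright and varied less between controls. Its scaled log2 signal was 1.44, 1.85 and 1.66 in control replicates 1, 2 and 3 (mean 1.65 ± 0.21, SD, n = 3). It was 1.83, 1.46 and 2.19 in knockout replicates 1, 2 and 3 (mean 1.83 ± 0.36, SD, n = 3). Knockout replicate 3 was highest, and the other knockout arrays lay within the control range.

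miR-142-5p gave far less signal than its partner arm, at -3.56, -3.08 and -3.25 in control replicates 1, 2 and 3 (mean -3.30 ± 0.24, SD, n = 3). The knockout values were -3.41, -3.42 and -2.50 (mean -3.11 ± 0.53, SD, n = 3). Here too knockout replicate 3 was highest and the groups overlapped. In intensity units its probe read 17.4 to 39.8, against 514.1 to 1112 for miR-142-3p and 1023 to 3175 for miR-223.

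**Figure D1:**
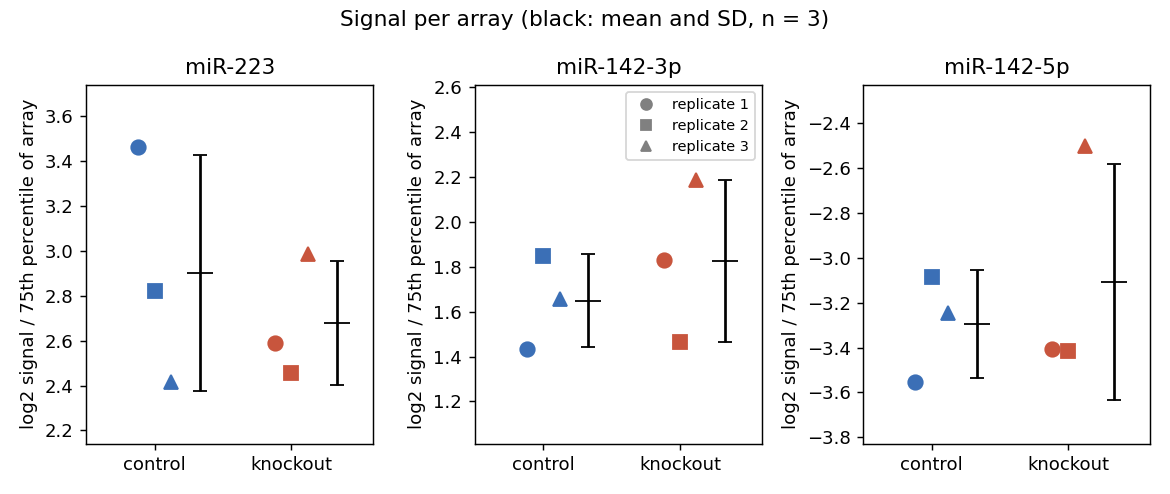
Scaled log2 signal of miR-223, miR-142-3p and miR-142-5p on each array, for 3 control and 3 knockout samples, with mean and SD beside the points; the panels share a span of the axis but not its position. Control replicate 1 is the highest array for miR-223 and the lowest for both miR-142 arms, and knockout replicate 3 is the highest for both miR-142 arms.

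In the order of mean control signal among the 611 mouse miRNAs, miR-223 was at place 6, miR-142-3p at 17 and miR-142-5p at 85. Probes differ in how strongly they bind and emit, so this is an order of brightness and not of copy number. By array, miR-223 held places 2, 7 and 8 in control and 7, 8 and 4 in knockout replicates 1, 2 and 3. miR-142-3p held places 17, 15 and 16 and then 15, 20 and 10, and miR-142-5p places 94, 84 and 85 and then 88, 106 and 70. Without control replicate 1, miR-223 moved to place 8 and miR-142-3p to 15. With the deposited gene-level totals, miR-142-3p stood at place 13 and miR-142-5p at 76.

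The neighbours in that order were picked for adjacent means, so their closeness to the members follows from the choice. They are given to show which miRNAs were about as bright. miR-24, next above miR-223, averaged 2.91 ± 0.14 (SD, n = 3), and let-7f, next below, 2.85 ± 0.13 (SD, n = 3). miR-146a (1.66 ± 0.45, SD, n = 3) and let-7d (1.62 ± 0.15, SD, n = 3) enclosed miR-142-3p. miR-296-5p (-3.25 ± 0.31, SD, n = 3) and miR-721 (-3.31 ± 0.80, SD, n = 3) enclosed miR-142-5p.

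**Figure D2:**
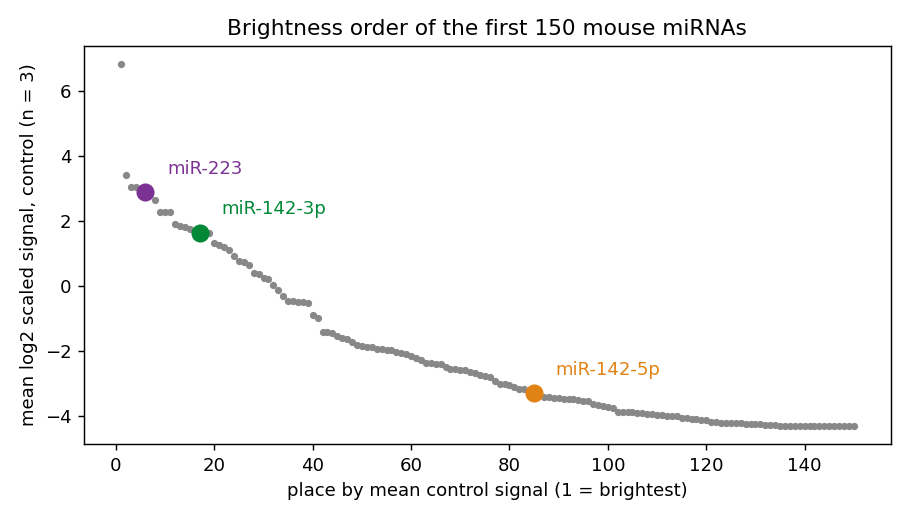
Mean scaled log2 signal in the 3 control samples against place in the order of brightness, for the brightest part of the 611 mouse miRNAs. miR-223 (place 6) and miR-142-3p (place 17) lie on the steep bright shoulder, and miR-142-5p (place 85) near the dim end of the detected miRNAs.

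As a share of the summed signal of detected miRNAs, miR-223 made up 4.03%, 2.30% and 1.99% in control replicates 1, 2 and 3 and 1.99%, 1.88% and 2.73% in the knockout replicates (two-sided exact permutation p = 0.5; 0.1 is the smallest p that 3 against 3 samples allow). miR-142-3p made up 1.16%, 1.36% and 1.39% in control replicates 1, 2 and 3 and 1.34%, 1.102% and 1.85% in the knockout replicates (exact permutation p = 0.9). miR-142-5p made up 0.0463% to 0.0626% and 0.0497% to 0.0954% (exact permutation p = 0.8). No share separated the genotypes.

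Each member is read by 2 probes with 10 spots each, and every one of these spots was well above background. The probes of a miRNA followed each other closely from array to array. The brighter miR-223 probe exceeded the dimmer by 1.86 to 1.97 on the log2 scale over the 6 arrays (SD 0.04), so the high value of control replicate 1 was present on both, at 3175 and 839.5 intensity units. The miR-142-3p probes were 1.02 to 1.12 apart (SD 0.04) and the miR-142-5p probes -0.03 to 0.18 apart (SD 0.09). Spots of the same probe varied with a coefficient of variation of 1.99% to 5.03% for miR-223, 0.891% to 4.35% for miR-142-3p and 4.61% to 14.7% for the dim miR-142-5p, over both probes and all arrays. The spread of miR-223 between arrays, an SD of 0.40 over all 6 on the log2 scale, ranked 25 among the 135 tested miRNAs, whose median was 0.24. For miR-142-3p it was 0.28, at place 54, and for miR-142-5p 0.38, at place 31.

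The comparison of genotypes asks which macrophage miRNAs depend on Notch signalling through RBP-J. None of the 3 miRNAs passed the test between knockout and control, and neither did any other. limma called 0 of 135 tested miRNAs at a Benjamini-Hochberg adjusted p under 0.05 (0%), and 6 at an unadjusted p under 0.05 (4.44%), none of them a member. The groups did not overlap for 14 miRNAs (10.4%), again none of them a member.

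miR-223 differed by -0.22 (SE 0.28; limma adjusted p = 0.748), which makes control signal 1.17-fold that of the knockout, with a 95% interval of -0.86 to 0.41. Without control replicate 1 the difference was 0.06 (adjusted p = 0.877), so its sign rested on that array. Without knockout replicate 3 it was -0.38, the other leave-one-out values ran from -0.46 to -0.11, and both miR-223 probes gave nearly the same value, -0.22 and -0.23. The adjusted p ranged down to 0.226 over the alternatives. With no scaling between arrays the difference was -0.68 (adjusted p = 0.254), when the median of all tested miRNAs was itself -0.31.

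miR-142-3p differed by 0.18 (SE 0.22; limma adjusted p = 0.748; 95% interval -0.32 to 0.68), but by -0.28 with no scaling between arrays. It was 0.01 with the 75th percentile over all mouse probes and 0.05 with gene-level totals. Without knockout replicate 3 it stood at -0.0012, and without control replicate 1 at 0.07. miR-142-5p differed by 0.19 (SE 0.27; limma adjusted p = 0.775; 95% interval -0.44 to 0.81), but by -0.27 with no scaling and by -0.12 without knockout replicate 3. Without control replicate 1 it stood at 0.06. It was 4.6e-04 in the series matrix, 0.0088 with quantile normalization and 0.02 with the percentile over all mouse probes. The lowest adjusted p over the alternatives was 0.535 for miR-142-3p and 0.215 for miR-142-5p. As scaled, all 3 intervals excluded a doubling or halving, and they do not cover the choice of scaling.

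The median tested miRNA stood at 0.11 as scaled, 97 above and 38 below control. Relative to it, miR-223 was at -0.33, miR-142-3p at 0.07 and miR-142-5p at 0.08. With normexp background correction miR-142-3p was at -0.13 relative to the median, and without control replicate 1 the 3 members were at -0.06, -0.05 and -0.06. Without knockout replicate 3 they were at -0.48, -0.11 and -0.22.

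**Figure D3:**
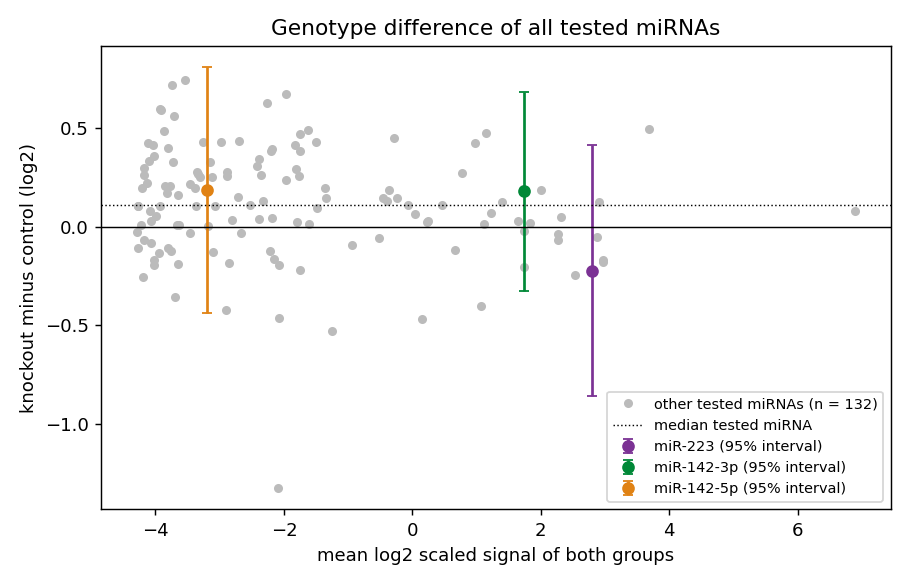
Knockout minus control (log2) against mean scaled log2 signal for the 135 tested miRNAs, with 95% intervals for the 3 members; the dotted line is the median of all tested miRNAs (0.11). The intervals of miR-223, miR-142-3p and miR-142-5p all span 0. The fit with no scaling between arrays, in which both miR-142 arms stood below 0, is not plotted.

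All arrays shared 1 slide, with replicates 1 and 2 in its first column and replicate 3 in the second. The differences did not hold within columns. miR-223 differed by -0.62 (knockout minus control) among the 4 arrays of column 1 and by 0.57 between the 2 arrays of column 2. miR-142-3p differed by 0.0040 and 0.53, and miR-142-5p by -0.09 and 0.75. With the column as a block the limma adjusted p was 0.745, 0.725 and 0.739.

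The ratio of the miR-142 arms spanned a narrow range in control macrophages with the probes used here, and a wider one with the other 5p probe. The 3p signal exceeded the 5p signal by 4.99, 4.93 and 4.91 on the log2 scale in control replicates 1, 2 and 3, a mean of 4.94 ± 0.04 (SD, n = 3). In knockout replicates 1, 2 and 3 it exceeded it by 5.24, 4.88 and 4.69, a mean of 4.94 ± 0.28 (SD, n = 3). The knockout arrays lay on both sides of the controls, with replicate 1 highest and replicate 3 lowest. With the other 5p probe, which is about as bright, the control values were 5.18, 4.91 and 4.88 (SD 0.16) and the knockout values 5.22, 4.90 and 4.80 (SD 0.22). With the probes used here, the linear ratios of signal were 30.0 to 31.8 in control and 25.8 to 37.7 in knockout samples. They describe these probes and not molecules of each strand.

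The arm ratio differed between genotypes by -0.0075 (two-sided exact permutation p = 1). The fit over hairpins gave a 95% interval of -0.45 to 0.44, so a change of the ratio by a factor of more than 1.35 upward or 1.37 downward lay outside it. The other probe pairs gave -0.01, -0.05 and -0.05 (exact permutation p = 0.9, 0.7 and 0.7). Normexp background correction gave -0.18 (exact permutation p = 0.5). The sign turned in the authors' series matrix (0.06) and without control replicate 1 (0.02), knockout replicate 2 (0.02) or knockout replicate 3 (0.12). Within slide column 1 the difference was 0.10 and within column 2 -0.22.

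Both arms were tested for 10 hairpins, and limma called 0 of them for a difference of the arm ratio between genotypes (0%; 0 also at an unadjusted p under 0.05). The miR-142 difference was the smallest in size of the 10. The 3 largest were let-7b over let-7b* at -0.35 (SE 0.21), let-7f over let-7f* at -0.23 (SE 0.22) and miR-22 over miR-22* at 0.17 (SE 0.22), with a limma adjusted p of 0.930 each. Over all 6 arrays the SD of the miR-142 arm ratio was 0.18, the third smallest of the 10, whose median was 0.27. Only 5 of the 10, miR-142 among them, had both arms detected on all 6 arrays. The smallest SD, 0.11 for miR-532, came from a hairpin with both arms detected on 3 arrays. With normexp background correction 1 hairpin was called, which was not miR-142 (adjusted p = 0.657).

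**Figure D4:**
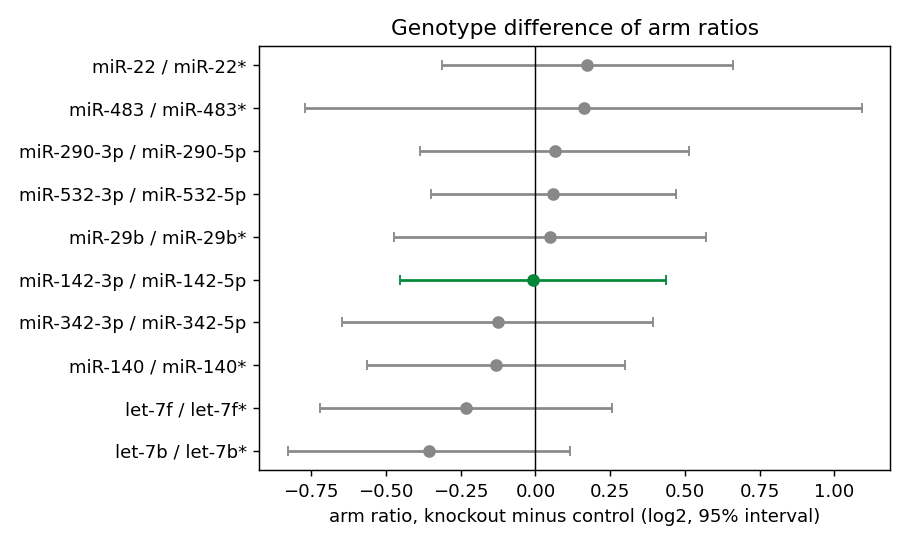
Difference of the log2 arm ratio, knockout minus control, with 95% intervals from limma for the 10 hairpins with both arms tested. Every interval spans 0, and the miR-142 point lies at -0.0075, nearest to 0.

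miR-223 was also set against miR-142-3p on the same array. The log2 difference was 2.03, 0.97 and 0.76 in control replicates 1, 2 and 3, a mean of 1.25 ± 0.68 (SD, n = 3). It was 0.76, 0.99 and 0.80 in knockout replicates 1, 2 and 3, a mean of 0.85 ± 0.12 (SD, n = 3). Of the 6 arrays 5 lay between 0.76 and 0.99, and control replicate 1 stood alone above them. The genotypes differed by -0.40 (exact permutation p = 0.7), and by -0.01 without control replicate 1 (exact permutation p = 1). Within slide column 1 the difference was -0.62 and within column 2 0.04.

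**Figure D5:**
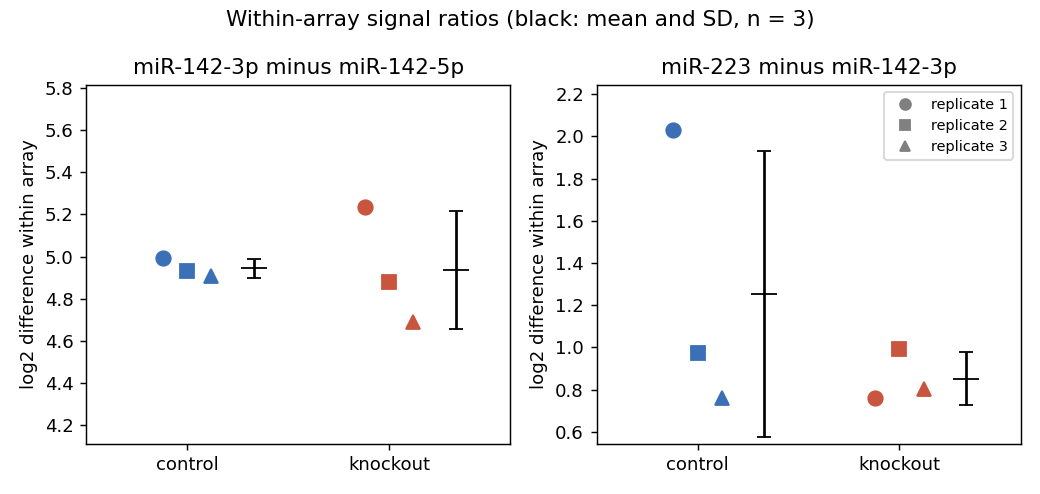
Log2 difference of signal within each array for the miR-142 arms (left) and for miR-223 against miR-142-3p (right), with mean and SD of 3 samples per group. The control arm ratios sit between 4.91 and 4.99, and control replicate 1 lies at 2.03 in the right panel while the other 5 arrays lie between 0.76 and 0.99.

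The arrays that set these spreads were described against the other samples of their own group. In control replicate 1, miR-223 was 0.84 above the mean of the other controls, the 6th highest departure among 135 miRNAs (median 0.07). miR-142-3p was -0.32 and miR-142-5p -0.39 from theirs. miR-210, the hypoxia-induced miRNA, had the highest departure on that array, 1.96. In control replicate 3, miR-223 was -0.73 from the mean of the other controls, which includes control replicate 1. By absolute size this was 8th of 135 (median -0.13), against 11th in control replicate 1. miR-210 had the largest departure there too, -1.37, while miR-142-3p was 0.02 and miR-142-5p 0.07 from theirs. In knockout replicate 3, all 3 members were above the mean of the other knockouts, miR-223 by 0.46, miR-142-3p by 0.54 and miR-142-5p by 0.91 (median -0.07). miR-142-5p was the 3rd highest departure there.

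Across the 6 arrays the signals of the miR-142 arms were correlated, and how miR-223 followed them depended on single arrays. The Pearson correlation of scaled log2 signal was 0.90 between miR-142-3p and miR-142-5p, -0.02 between miR-223 and miR-142-3p and 0.05 between miR-223 and miR-142-5p. Leaving arrays out was added here after the data had been seen. Without control replicate 1, miR-223 correlated with miR-142-3p at 0.90 and with miR-142-5p at 0.87 over 5 arrays. Without knockout replicate 3 these correlations were -0.35 and -0.43, so the values near 0 rested on both arrays. The correlation of the arms fell to 0.71 without knockout replicate 3, and leaving out each other array kept it between 0.87 and 0.99. These points share the arrays and their scaling, and the median over all pairs of the 110 miRNAs detected on all arrays was 0.12. With no scaling the arms correlated at 0.93, and the median over pairs was 0.54. Among the 109 other miRNAs detected on all arrays, miR-142-5p had the pattern most like miR-142-3p, followed by miR-7a (0.895) and miR-301a (0.83). For miR-142-5p the order was miR-106b (0.93), miR-93 (0.92) and miR-142-3p (0.90). For miR-223 it was miR-20a (0.92), miR-210 (0.86) and miR-720 (0.85). These orders rest on all 6 arrays and were not recomputed with an array left out. In control replicate 1, miR-20a, miR-210 and miR-720 were also above the mean of the other controls, by 0.31, 1.96 and 0.79. In knockout replicate 3, miR-7a, miR-301a, miR-106b and miR-93 were above the mean of the other knockouts, by 0.76, 0.68, 0.43 and 0.34. The arms of other hairpins correlated at between -0.09 for miR-483 and 0.91 for miR-532, each with both arms detected on only 3 arrays. Among other hairpins with both arms detected on all 6 arrays the range was 0.17 for let-7f to 0.86 for miR-140.

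Other miRNAs tied to the same transcription factors or to myeloid differentiation gave no call. Of 11 miRNAs linked to PU.1 or C/EBP-alpha, miR-223 among them, 10 were tested, 0 passed in either direction, and 7 lay above and 3 below control as scaled. Their median difference was 0.19, or 0.08 relative to the median of all tested miRNAs. The smallest unadjusted p among them was that of miR-342-5p, at 0.60 (SE 0.23; limma adjusted p = 0.637), which was detected on 4 arrays. Of 11 miRNAs described in monocyte and macrophage differentiation 9 were tested and 0 passed, 4 above and 5 below control as scaled, with a median of -0.04, or -0.15 relative to all. There miR-221, which targets the growth factor receptor Kit, had the smallest unadjusted p and stood at -0.40 (SE 0.23; limma adjusted p = 0.637).

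miRNAs that mark other cells were mostly not detected. None of the 3 erythroid or platelet, 2 endothelial, 5 stromal, 7 epithelial or 4 muscle miRNAs was detected on any array. miR-451 of red cells, miR-126-3p of endothelium and miR-150 of lymphocytes were among the undetected ones. Of 5 lymphoid miRNAs, miR-181a and miR-181b were detected on all arrays, and macrophages also express these. The summed lymphoid signal, not scaled between arrays, was 111.1 to 147.8 intensity units in control and 97.6 to 118.2 in knockout samples. Of 6 progenitor miRNAs 3 were tested, with unscaled sums of 99.2 to 142.1 and 89.2 to 111.1 units. All knockout arrays were dimmer in total, so these sums cannot show a lower content in the knockout. As scaled, the 2 tested lymphoid miRNAs lay above control (median difference 0.29). Of the tested progenitor miRNAs, 1 lay above and 2 below control as scaled (median difference -0.11). Smallest by unadjusted p were miR-181b at 0.43 (SE 0.27) and miR-10a at 0.49 (SE 0.23), with a limma adjusted p of 0.637 each. Because miR-223 and miR-142 are shared by macrophages, granulocytes and other blood cells, a change in the mix of these cells and a change per cell cannot be told apart in such bulk samples.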

How the data were processed

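The values come from 1-colour Agilent miRNA arrays of design 021828, 1 per sample. Per the file headers, Agilent Feature Extraction 10.5.1.1 produced the deposited intensity of each spot, with the background removed and spatial trends within the array corrected; the submitters' processing notes give its version as 9.1. The deposited gene-level tables hold the total intensity and detection call per miRNA. The authors' series matrix holds log2 values, which correlated at 0.999 or more with log2 of each array's totals, with column medians of 0 to 0.03. Its scale therefore follows log2 of the totals, but its values are not log2 of the totals alone. miR-223 in control replicate 3 and miR-142-3p in knockout replicate 3 shared the value 10.183419, with totals of 1539 and 1021. The highest value was 14.74 in every column but that of control replicate 1, at 14.13. The values do not state which normalization was used, and 1-colour signal has no ratio direction. 0 columns belonged to no sample.

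Probe values were medians over spots without outlier flags, and a probe was detected where 50% of its spots were well above background. Each array was scaled to the 75th percentile of 200 probes detected throughout, low values were set to a floor of -4.32 in log2 units, and each miRNA was represented by its brightest probe. The 135 miRNAs detected on at least 3 arrays entered lmFit and eBayes of limma 3.58.1 (R 4.3.3), with no covariate, and Benjamini-Hochberg adjustment over all of them at 0.05. Arm pairs were fitted likewise. Single ratios and shares had two-sided exact permutation tests over samples. The fit was tested on simulated data. Precision is limited by the number of arrays.

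The 3 miRNAs and the lists were chosen with earlier results of these data known. Named by rule were the 3 members, for each the 3 miRNAs most correlated with it, its neighbours in brightness, the member of each list with the smallest p, and the 3 hairpins with the largest arm difference. miR-451, miR-126-3p, miR-150 and miR-181a were named after their values were seen. Alternatives covered normexp, averaged probes, gene-level totals, the series matrix, no floor, other scalings (all mouse probes, quantile, none), other filters and detection calls, both arms detected on all 6 arrays, replicate and slide-column blocks, eBayes with trend and robust, and leaving out each array; the closing section gives those that changed a result. For normexp, the planned background correction, median pixel signals were used, and the offset was 50. RefSeq sequences and coordinates are those of the reference table, since the array files name no build; all 3 names were matched by hand through the gene's synonyms.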

Additional observations from a re-analysis of the deposited data

How the results depend on the processing

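No alternative brought miR-223, miR-142-3p, miR-142-5p, the arm ratio or the miR-223 to miR-142-3p ratio past its threshold, and the exact tests of 3 samples against 3 could not pass. miR-223 kept a negative difference except without control replicate 1 (0.058), with a leave-one-out range of -0.46 to 0.058. For miR-142-3p the range was -0.0012 to 0.36 and for miR-142-5p -0.12 to 0.34. With no scaling between arrays these turned to -0.28 and -0.27. Leaving out each array, the arm ratio difference ranged from -0.16 to 0.12 and the miR-223 to miR-142-3p difference from -0.65 to -0.01. The arm ratio difference was -0.18 with normexp, outside that range, and 0.059 in the series matrix. The count of called miRNAs stayed at 0 throughout, and that of called arm ratios was 1 with normexp and otherwise 0. Shares of summed signal moved, leaving out each array, between -0.969 and 0.0532 percentage points for miR-223, -0.0804 and 0.292 for miR-142-3p and -0.0064 and 0.0164 for miR-142-5p. By place, miR-142-3p was at 13 and miR-142-5p at 78 with averaged probes, and at 13 and 76 with gene-level totals and in the series matrix; leaving out each control gave 5 to 8 for miR-223, 15 to 18 for miR-142-3p and 85 for miR-142-5p. The cause of these moves was not tested. Replicate numbers were shared, and nothing states whether they mark pairs. Deviations of same-numbered arrays correlated at 0.17, -0.07 and 0.37, and those of differently numbered arrays at between -0.29 and 0.16. With the replicate block the differences were -0.22, 0.18 and 0.19 (limma adjusted p = 0.724 each), the arm ratio -0.0075, the miR-223 to miR-142-3p difference -0.40, and 0 miRNAs and 0 arm ratios were called. Gene-level totals as an alternative for the shares were not run, since the shares already rest on them. The dim miR-142-5p, at 17.4 to 39.8 intensity units,, went from 0.19 to 0.29 with normexp, and its spots varied by up to 14.7%.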
